A study of Mus musculus with 4 samples.

Results

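SIK, MARK and NUAK kinases are 3 branches of the AMPK-related kinase family, and their 9 genes (Sik1, Sik2 and Sik3; Mark1, Mark2, Mark3 and Mark4; Nuak1 and Nuak2) were described here because LKB1, the kinase the study knocked down, is their activator. The genes were taken by symbol from the gene table, where all 9 were found among 15768 genes, and their RefSeq transcripts by gene ID from the transcript table, which gave 49 of 53915 transcripts. The samples were RNA-seq libraries of JoMa 1.3, a mouse neural crest stem cell line, grown with N2 and B27 supplements, EGF, FGF and chick embryo extract. The Lkb1 siRNA group (labelled Lkb1 KD) received pooled siRNAs that target Stk11, which encodes LKB1 in mice, and the control siRNA group (labelled WT) pooled non-targeting siRNAs. In both, the siRNA concentration was 60 nM and cells were used 72 h after transfection. Each group held 2 libraries, 1 from batch 1 and 1 from batch 2. The knockdown was transient and partial, and the labels name a pair of transfection reagents without saying which culture received which.

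LKB1 works in a complex with the pseudokinase STRAD and the scaffold MO25, and switches on AMPK and its relatives by phosphorylating one threonine in the activation loop of each kinase. SIKs then phosphorylate the CRTC coactivators of CREB and the class IIa histone deacetylases, which 14-3-3 proteins hold in the cytoplasm, while MARKs phosphorylate microtubule-associated proteins and polarity factors, and NUAKs phosphorylate the myosin phosphatase targeting subunit MYPT1. Loss of LKB1 acts on these kinases through that phosphorylation, which RNA-seq does not measure. The values below are RNA levels only.

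The coding sequence around the threonine codon is shown because it is the site that makes these genes targets of LKB1. Each line runs 5′ to 3′ on the coding strand, from 4 codons before the threonine codon, which is in capitals, to 11 codons after it, and was read from the GENCODE M21 transcript (GRCm38) with the longest coding sequence.
Sik1: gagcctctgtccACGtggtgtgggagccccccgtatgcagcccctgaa
Sik2: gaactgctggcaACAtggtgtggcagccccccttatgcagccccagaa
Sik3: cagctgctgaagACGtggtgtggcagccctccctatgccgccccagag
Mark1: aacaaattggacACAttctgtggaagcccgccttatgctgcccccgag
Mark2: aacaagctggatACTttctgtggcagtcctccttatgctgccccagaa
Mark3: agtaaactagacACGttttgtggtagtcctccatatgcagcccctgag
Mark4: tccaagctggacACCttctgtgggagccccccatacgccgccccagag
Nuak1: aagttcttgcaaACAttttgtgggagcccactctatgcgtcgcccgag
Nuak2: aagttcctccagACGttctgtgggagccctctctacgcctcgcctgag
All 9 genes had a threonine codon at this place, and 23 of the 48 bases were the same in every gene. Genes of the same branch shared between 35 and 39 of the 48 bases over 10 pairs, and genes of different branches between 27 and 36 over 26 pairs. In each gene the stretch lay within 1 coding exon. It lay at chr17:31850986-31851033 (minus strand, exon 6) in Sik1, at chr9:50917573-50917620 (minus strand, exon 5) in Sik2 and at chr9:46177904-46177951 (plus strand, exon 5) in Sik3. Among the MARK genes it lay in exon 8 throughout, at chr1:184919629-184919676 (minus strand) in Mark1, chr19:7285843-7285890 (minus strand) in Mark2, chr12:111627154-111627201 (plus strand) in Mark3 and chr7:19443228-19443275 (minus strand) in Mark4. In the NUAK genes it lay at chr10:84380780-84380827 (minus strand, exon 5) in Nuak1 and at chr1:132329997-132330044 (plus strand, exon 6) in Nuak2.

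Each library held between 17426719 and 19324675 gene counts. Stk11 had 36.33 and 36.93 FPKM (fragments per kilobase of transcript and per library depth) in the Lkb1 siRNA libraries, against 52.72 and 52.10 FPKM in the control siRNA libraries, so each library lay on the side its label gives. Its log2 fold change was -0.55 (SE 0.0659), which passed edgeR's quasi-likelihood test at an adjusted p of 0.0378. This call was lost when library size replaced TMM scaling (0.0633) or when limma was run on FPKM (0.163 and 0.141).

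Cell type markers were checked in every library, and some differed between the siRNA groups. Of 15 neural crest markers 12 were tested, and their sum was 1772 and 1772 FPKM in the Lkb1 siRNA libraries, against 2089 and 2164 FPKM in control siRNA libraries. Sox9, Tfap2b, Twist1 and Ets1 lay between 12.2 and 38.2 FPKM throughout. Ngfr (0.51 to 0.80 FPKM), Tfap2a (1.85 to 2.26 FPKM) and Msx1 (2.77 to 3.15 FPKM) were low, and Ednrb was at 0.02 FPKM or less. Nes had 31.4 and 29.9 FPKM after Lkb1 siRNA, against 35.2 and 25.1 FPKM after control siRNA. Sox10 and Foxd3 were not found by symbol among the 15768 genes. None of the 12 tested passed the main edgeR test. With batch as a replicate block, the fit described below, 4 passed: Vim, Erbb3 and Snai2 as lower and Pax3 as higher. In that fit 13.6% of all genes passed, 6.99% as lower and 6.59% as higher. Vim, which makes up most of the sum, had 1561 and 1573 FPKM after Lkb1 siRNA, against 1884 and 1961 FPKM after control siRNA, and Erbb3 had 1.44 and 1.43 FPKM after Lkb1 siRNA, against 2.05 and 2.36 FPKM after control siRNA. Snai2 had 52.5 and 44.6 FPKM after Lkb1 siRNA, against 53.1 and 53.3 FPKM after control siRNA, and Pax3 had 18.0 and 19.3 FPKM after Lkb1 siRNA, against 14.4 and 17.8 FPKM after control siRNA.

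The 5 smooth muscle markers summed to 327.3 and 307.9 FPKM in the Lkb1 siRNA libraries, against 408.6 and 381.9 FPKM in the control libraries, nearly all of it Acta2 and Tagln. Acta2 (179.4 and 171.2 FPKM after Lkb1 siRNA, against 229.8 and 219.0 FPKM after control siRNA) and Tagln (147.5 and 136.3 FPKM after Lkb1 siRNA, against 178.6 and 162.6 FPKM after control siRNA) missed the main test and passed as lower in the blocked fit by edgeR and by DESeq2. With the block edgeR called 6.99% of all genes as lower. DESeq2 with the block called 1.44% of the 8194 genes with an adjusted p, in either direction. Des was low and lay the other way, at 0.31 and 0.45 FPKM after Lkb1 siRNA, against 0.25 and 0.15 FPKM after control siRNA, and Cnn1 and Myh11 were at 0.07 FPKM or less. The neuron marker Tubb3 had 11.6 and 8.24 FPKM after Lkb1 siRNA, against 7.75 and 7.71 FPKM after control siRNA. It passed as higher in the blocked edgeR fit (adjusted p = 0.0436, against 0.515 unblocked), where 6.59% of all genes did. Elavl3 was at 0.02 FPKM or less. The glia marker Mbp reached at most 0.59 FPKM in any library. Blood cell markers (led by Hba-a1 and Cd68) summed to at most 6.08 FPKM, epithelial markers to at most 0.64 FPKM and endothelial markers to at most 0.44 FPKM. The part of these markers in the results below was not tested. In bulk samples such as these, fewer cells of a type and less RNA per cell cannot be told apart.

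Levels of the 9 kinases ranged widely, with Mark3 at the top and Mark1 at the bottom. Averaged over the 4 libraries, Mark3 had 34.3 ± 2.02 FPKM (SD, n = 4), which was above 76.4% of the 12222 genes tested. Sik1 (17.7 ± 1.69 FPKM), Sik3 (16.5 ± 0.331 FPKM), Mark2 (15.3 ± 0.764 FPKM) and Mark4 (12.5 ± 0.697 FPKM) followed near the middle of all genes. Below them came Nuak1 (6.12 ± 0.402 FPKM), Sik2 (5.54 ± 0.522 FPKM), Nuak2 (1.90 ± 0.105 FPKM) and Mark1 (0.665 ± 0.108 FPKM). Mark3 thus had 51.6 times the FPKM of Mark1. Neighbours in this order overlapped over the libraries in 2 places, between Sik1 and Sik3 and between Nuak1 and Sik2, and in the other 6 places every library of the higher gene lay above every library of the lower one. Each branch had a minor gene, with Sik2 the lowest of the SIKs, Mark1 the lowest of the MARKs and Nuak2 the lower of the NUAKs.

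**Figure D1:**
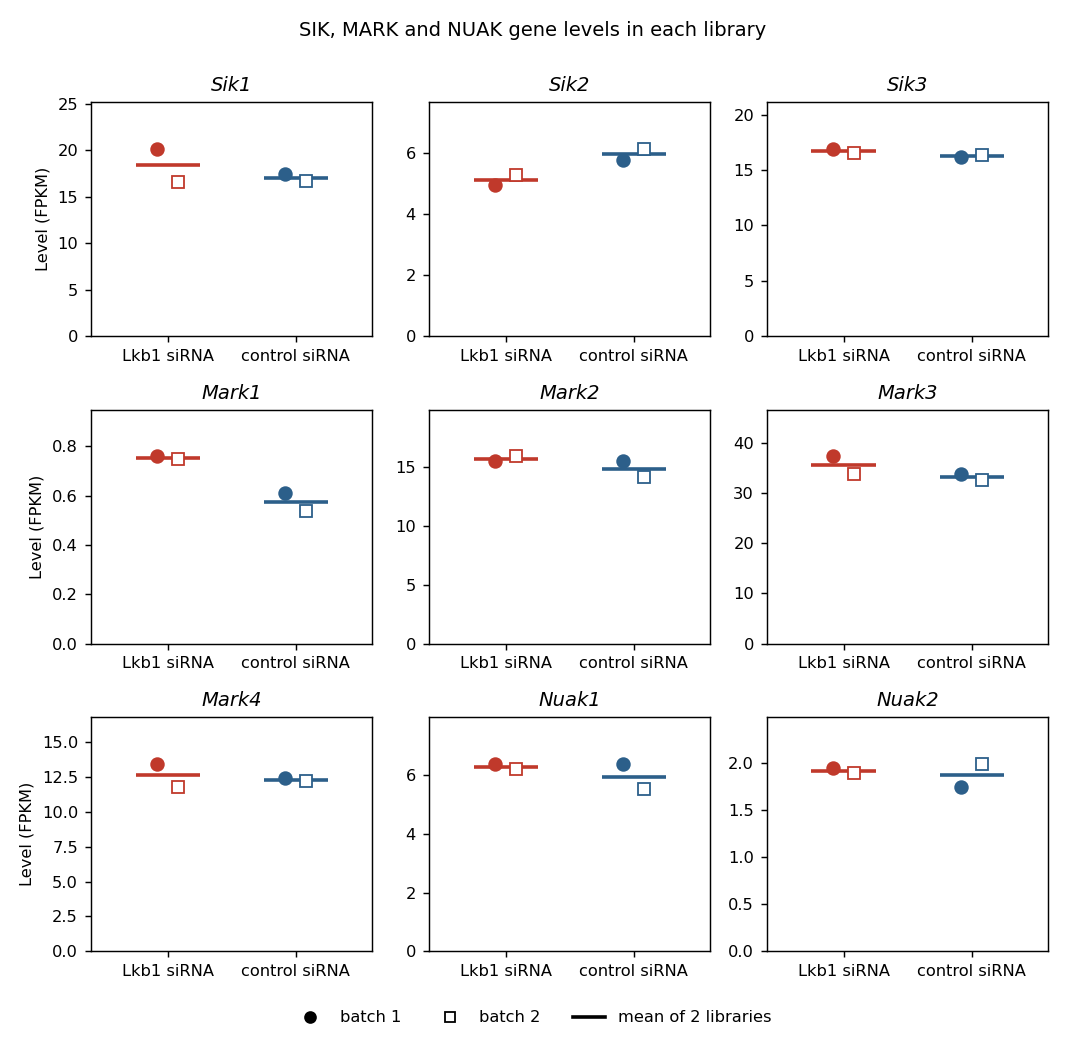
Level of each kinase gene in FPKM (vertical axes, from 0) in Lkb1 siRNA and control siRNA libraries, with 1 point per library (filled circle batch 1, open square batch 2) and a bar at the mean of 2. Sik2 is lower and Mark1 higher in both Lkb1 siRNA libraries than in either control siRNA library, and in TMM-scaled CPM the other 7 genes overlap between groups.

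No kinase gene passed the main test. Of the 9 genes, 0 had an adjusted p under 0.05 in edgeR's quasi-likelihood test, where 0.0818% of all genes did. At an unadjusted p under 0.05 there was 1, Sik2, where 11.1% of all genes were called. DESeq2 also called 0 of the 9, where 0.401% of all genes were called, and limma on FPKM called no gene. With batch as a replicate block, which the batch numbers in the labels allow, edgeR called 1 of the 9, Sik2. Of all genes 13.6% were called, 6.99% as lower. That edgeR fit rested mostly on a spread shared over genes, not on each gene's own. DESeq2 with the block called 0 of the 7 to which it gave an adjusted p (all but Mark1 and Nuak2), where 1.44% of the 8194 genes with one were called. In CPM (counts scaled to library size after TMM adjustment), the groups did not overlap for 2 of the 9 genes, Sik2 and Mark1. Of all genes, 42.6% did not overlap. Overlap was not counted with library size alone, so these values and the overlaps in CPM given below hold for TMM scaling only. The median log2 fold change of the 9 was 0.05, against 0.0005 over all genes tested, and 8 of the 9 were above 0, where 50.2% of all genes were. That count was 6 with the block and 4 without the Lkb1 siRNA library of batch 1, and without the control siRNA library of batch 2 it was 5.

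**Figure D2:**
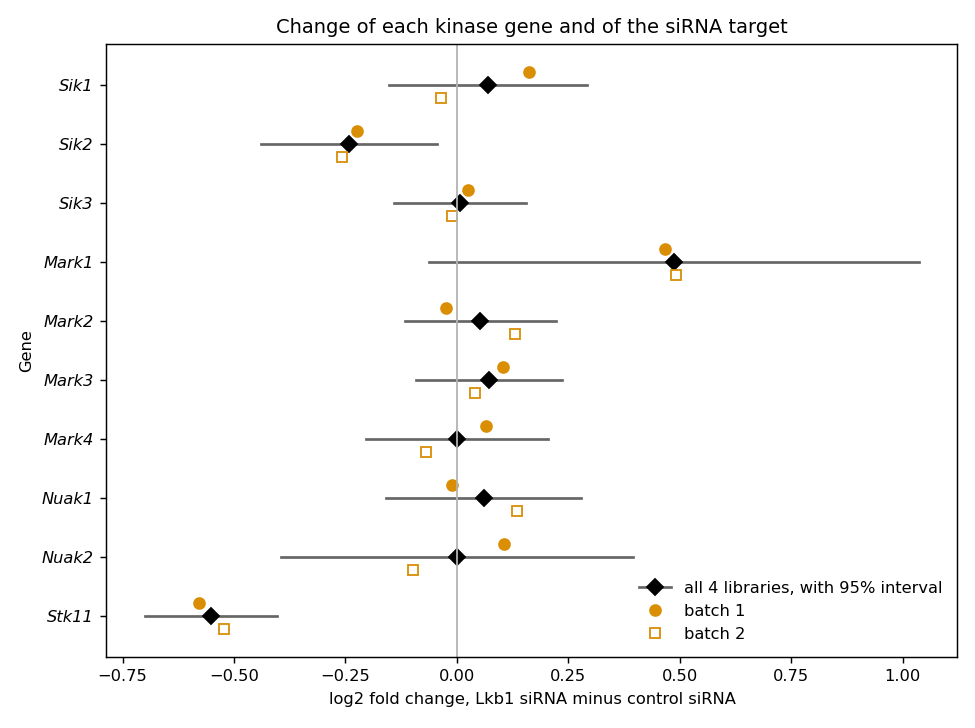
Log2 fold change (horizontal axis, Lkb1 siRNA minus control siRNA) of the 9 kinase genes and of Stk11. Diamonds and lines are the fit to all 4 libraries with its 95% interval, and circles and squares the differences within batch 1 and batch 2; the interval leaves out 0 for Sik2 and Stk11 only, before adjustment over all genes.

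Among the SIKs, Sik2 was lower after Lkb1 siRNA in both batches. SIK2 is a kinase of CRTC and class IIa histone deacetylases first studied in adipose tissue. Sik2 (gene ID 235344) had 4.96 and 5.30 FPKM in the Lkb1 siRNA libraries, against 5.77 and 6.15 FPKM in the control siRNA libraries. The groups did not overlap, and in each group the batch 2 library was the higher one. In counts it averaged 30.6 ± 1.04 CPM after Lkb1 siRNA and 36.2 ± 1.81 CPM after control siRNA (SD, n = 2 each). This is a change of -15.5%, with a 95% interval from -26.3 to -3.07%, or a log2 fold change of -0.24 (SE 0.0876; by edgeR, adjusted p = 0.358). Within batches the log2 difference was -0.23 in batch 1 and -0.26 in batch 2. With the replicate block the log2 fold change was again -0.24 and Sik2 passed (edgeR adjusted p = 0.0140), while DESeq2 with the same block gave an adjusted p of 0.780.

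Sik2 shares exon sequence with a neighbour on the opposite strand. In GENCODE M21, 589 of the 3552 exon bases of the Sik2 transcript shown above (16.6%) also lay in exons of Ppp2r1b, a scaffold subunit gene of protein phosphatase 2A, which is named here because of that overlap. None of the other 8 kinase transcripts shared exon bases with another gene. Whether the authors counted reads by strand is not given in the sources used here, so the reads of the shared stretch are uncertain for both genes. Ppp2r1b had 22.92 and 19.20 FPKM in the Lkb1 siRNA libraries, against 19.26 and 18.04 FPKM in the control siRNA libraries, a log2 fold change of 0.15 (SE 0.0952; by edgeR, adjusted p = 0.579). Its direction was the opposite of that of Sik2, and its groups overlapped in CPM.

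Sik1 and Sik3 did not follow Sik2. SIK1 is the member of the branch whose own gene is induced by CREB, and SIK3 is known from skeletal growth and sleep in mice. Sik1 (17691) had 20.19 and 16.60 FPKM in the Lkb1 siRNA libraries, against 17.49 and 16.66 FPKM in the control siRNA libraries. The Lkb1 siRNA library of batch 1 was the highest, and the Lkb1 siRNA library of batch 2 the lowest, so the groups overlapped. The log2 fold change was 0.07 (SE 0.0983; by edgeR, adjusted p = 0.834), with differences of 0.16 in batch 1 and -0.04 in batch 2. Sik3 (70661) had 16.94 and 16.51 FPKM after Lkb1 siRNA, against 16.16 and 16.36 FPKM after control siRNA. In FPKM both Lkb1 siRNA libraries lay slightly above both control siRNA libraries, and in CPM the groups overlapped. Its change was 0.489%, with a 95% interval from -9.30 to 11.3%, one of the narrower intervals among the 9 genes. Summed over the branch, SIK RNA was 42.1 and 38.4 FPKM in the Lkb1 siRNA libraries, against 39.4 and 39.2 FPKM in the control siRNA libraries.

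Among the MARKs, Mark1 was higher after Lkb1 siRNA in both batches but rested on few reads. MARK1 is a microtubule-affinity regulating kinase that phosphorylates tau and MAP2 and is known mainly from neurons. Mark1 (226778) had 56 and 51 reads in the Lkb1 siRNA libraries, against 42 and 37 reads in the control siRNA libraries. These were 0.76 and 0.75 FPKM after Lkb1 siRNA and 0.61 and 0.54 FPKM after control siRNA. The groups did not overlap, and the libraries of a group lay close together. The log2 fold change was 0.49 (SE 0.244; by edgeR, adjusted p = 0.500; 0.171 with the replicate block), with 0.47 in batch 1 and 0.49 in batch 2. The neuron marker Tubb3 was higher as well, and its part in this was not tested. In percent the change was 40.2%, and the 95% interval reached from -4.21 to 105.1%.

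The 3 abundant MARK genes differed little between the groups. MARK2 and MARK3 are mammalian counterparts of the polarity kinase PAR-1, and MARK3 also phosphorylates CDC25C and KSR1; MARK4 is found at centrosomes and microtubules. Mark3 (17169) had 37.25 and 33.72 FPKM in the Lkb1 siRNA libraries, against 33.72 and 32.61 FPKM in the control siRNA libraries. Mark2 (13728) had 15.48 and 15.88 FPKM after Lkb1 siRNA, against 15.51 and 14.14 FPKM after control siRNA. Mark4 (232944) had 13.45 and 11.82 FPKM after Lkb1 siRNA, against 12.44 and 12.20 FPKM after control siRNA. In CPM the groups overlapped for all 3 genes, and the batch 1 library was the higher of the 2 after Lkb1 siRNA for Mark3 and Mark4 and the lower for Mark2. Log2 fold changes were 0.07 for Mark3 (SE 0.0723), 0.05 for Mark2 (SE 0.0749) and 0.0008 for Mark4 (SE 0.0905), with edgeR adjusted p of 0.752, 0.836 and 0.998. Their 95% intervals held changes from -6.09 to 17.7%, from -7.72 to 16.6% and from -13.1 to 15.2%, in the same order of genes.

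Neither NUAK gene separated the groups. NUAK1 (ARK5) and NUAK2 (SNARK) act on cell adhesion and actomyosin contraction through MYPT1. Nuak1 (77976) had 6.38 and 6.20 FPKM in the Lkb1 siRNA libraries, against 6.37 and 5.53 FPKM in the control siRNA libraries. Nuak2 (74137) had 1.95 and 1.89 FPKM after Lkb1 siRNA, against 1.75 and 1.99 FPKM after control siRNA. For Nuak1 the control siRNA library of batch 2 was the low one, and for Nuak2 the control siRNA libraries lay on both sides of the Lkb1 siRNA libraries. The log2 fold change was 0.06 for Nuak1 (SE 0.0971; by edgeR, adjusted p = 0.857) and 0.0004 for Nuak2 (SE 0.175; by edgeR, adjusted p = 1.00). Nuak2 was measured with 95 and 98 reads after Lkb1 siRNA and 92 and 108 reads after control siRNA, and its 95% interval was wide, from -23.9 to 31.5%.

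In Sik1, Sik3, Mark3, Mark4, Nuak1 and Nuak2, 6 of the 9, the batch log2 difference exceeded the siRNA log2 difference in size. The share of all genes for which this held was not computed, so the count is not a result about these kinases. In Sik3 and Nuak2 both differences were smaller than their SE. Tested as the batch term of the blocked fit, 1 of the 9 genes differed between the batches, Sik1, where 12.9% of all genes did. Sik1 was lower in batch 2 by a log2 difference of -0.20 (SE 0.0568; by edgeR, adjusted p = 0.00802), with 16.60 and 16.66 FPKM in the batch 2 libraries and 20.19 and 17.49 FPKM in the batch 1 libraries, the Lkb1 siRNA library first in each pair. Mark1, Nuak1, Mark4 and Mark3 had log2 batch differences of -0.24, -0.13, -0.13 and -0.09 and did not pass (edgeR adjusted p from 0.231 to 0.574). For Sik2 the log2 batch difference was 0.09 (edgeR adjusted p = 0.498), smaller than its difference between the siRNAs.

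The transcript tables showed which isoforms carried each gene, with uncertain splits for genes of many isoforms. Of the 49 transcripts, 24 had reads in all 4 libraries, and 33 passed the filter on low counts. In Sik3 and Mark4 a single transcript held between 96.3 and 98.3% (Sik3, NM_027498) and between 93.6 and 98.9% (Mark4, NM_172279) of the gene's FPKM in every library. NM_010831 held 86.7 and 77.6% of Sik1 in the Lkb1 siRNA libraries, against 87.5 and 85.4% in the control siRNA libraries. NM_001370744 held 48.4 and 55.3% of Mark3 after Lkb1 siRNA, against 48.7 and 48.6% after control siRNA. Mark2 was divided over 18 listed transcripts, 13 of which were at 0 in at least 1 library, and its leading form XM_036161427 held 39.0 and 29.4% after Lkb1 siRNA, against 32.0 and 35.3% after control siRNA. NM_028778 was the main form of Nuak2, with 87.7 and 84.7% after Lkb1 siRNA and 74.4 and 87.9% after control siRNA. NM_001004363 was that of Nuak1, with 99.5 and 76.7% after Lkb1 siRNA and 72.2 and 93.7% after control siRNA.

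**Figure D3:**
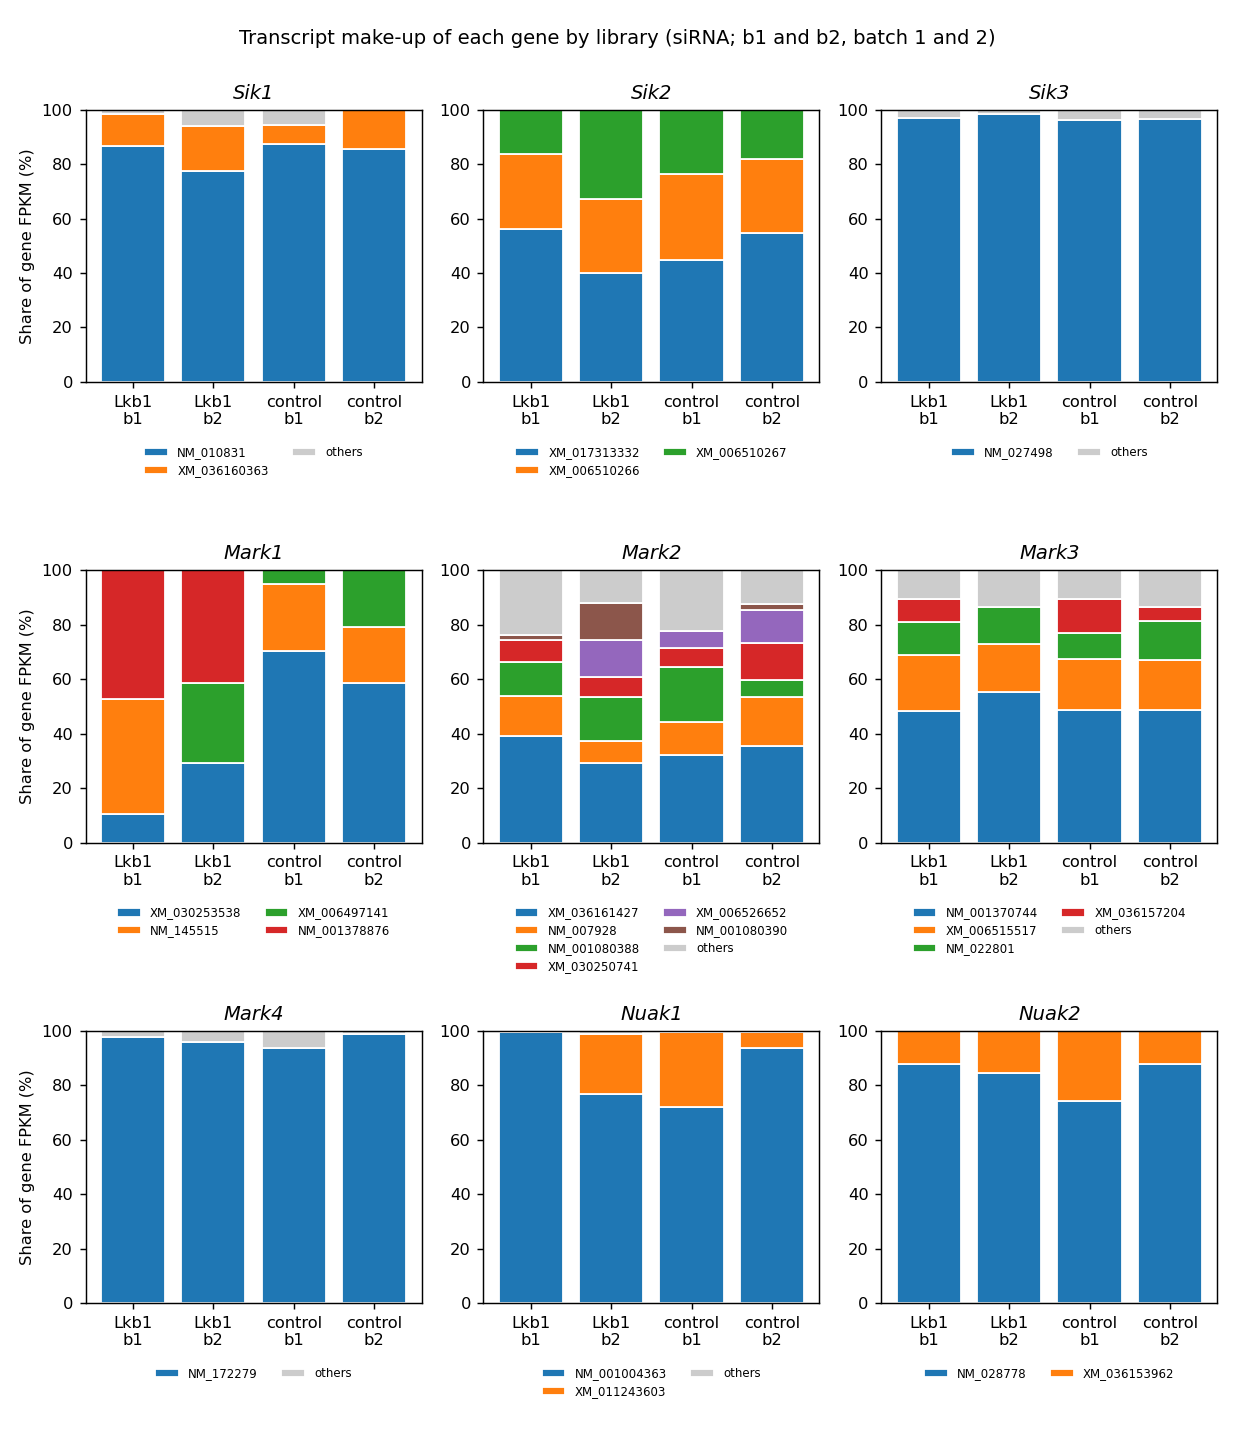
Share of each gene's FPKM (vertical axes, percent) held by its transcripts in the 4 libraries, with named transcripts in colour and the others in grey. Sik3 and Mark4 rest on 1 transcript in every library, while the Mark1 form NM_001378876 (red) appears in both Lkb1 siRNA libraries and in neither control siRNA library.

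All 3 transcripts of Sik2 had reads in every library. XM_017313332 held 56.0 and 39.8% of Sik2 in the Lkb1 siRNA libraries, against 44.9 and 54.6% in control siRNA libraries, and XM_006510266 held 27.6 and 27.4% after Lkb1 siRNA, against 31.4 and 27.2% after control siRNA. XM_006510267 held the rest, with 16.3 and 32.8% after Lkb1 siRNA and 23.7 and 18.2% after control siRNA. The shares overlapped between the groups for all 3. Log2 fold changes of their counts were -0.32 (XM_017313332), -0.35 (XM_006510266) and -0.01 (XM_006510267), each with an edgeR adjusted p of 1.00.

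The make-up of Mark1 differed between the groups, on very low counts. NM_001378876 had 27.3 and 24.4 estimated reads in the Lkb1 siRNA libraries, against 0 and 0 in the control siRNA libraries. It made up 47.4 and 41.3% of Mark1 FPKM after Lkb1 siRNA and was listed at 0 after control siRNA. With 3 counts per library put in place of 0, its mean CPM was 8.89-fold higher after Lkb1 siRNA. This ratio is not a lower bound, since it leaves out the error of the estimated reads. XM_030253538 went the other way, with 10.5 and 29.3% after Lkb1 siRNA, against 70.5 and 58.5% after control siRNA. An exact permutation test of either share gave a two-sided p of 0.33, the smallest that 2 against 2 allows. In edgeR's quasi-likelihood test NM_001378876 had an unadjusted p of 0.0178 and an adjusted p of 0.687 (0.925 with the replicate block), and DESeq2 called it without the block (adjusted p = 0.0191) and gave it no adjusted p with it. The other Mark1 forms were unsteady within groups, since NM_145515 held 42.1 and 0% after Lkb1 siRNA and 24.6 and 20.8% after control siRNA. No allowance was made for the uncertainty of assigning reads to isoforms.

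Over all transcripts of the 9 genes, edgeR called 0 of 33 without and with the block, where 0% of all transcripts were called in either fit. At an unadjusted p under 0.05 there was 1 of 33 without the block, NM_001378876, where 6.75% of all transcripts were called, and 0 with it, where 5.15% were. DESeq2 called that transcript only, 1 of 33, where 3.66% of all transcripts were called. With the block it called 0, where 1.95% of the 30291 transcripts with an adjusted p were called. NM_001378876 was given no adjusted p in that fit.

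The partners of LKB1 and the other kinases of the family are given for comparison. Of the LKB1 complex, Strada had 18.03 and 17.23 FPKM in the Lkb1 siRNA libraries, against 14.83 and 17.38 FPKM in control siRNA libraries, and Stradb had 6.69 and 6.78 FPKM after Lkb1 siRNA, against 6.51 and 8.27 FPKM after control siRNA. Both STRAD genes overlapped between groups. The MO25 genes Cab39 and Cab39l had log2 fold changes of -0.07 and -0.11 (edgeR adjusted p = 0.737 and 0.677). Of 6 other family kinases tested, 0 passed the main test and 1 passed as lower with the replicate block, where 6.99% of all genes did. That gene was Prkaa1, the AMPK catalytic subunit alpha 1, with 18.57 and 18.11 FPKM after Lkb1 siRNA, against 20.31 and 20.28 FPKM after control siRNA (log2 fold change -0.18, SE 0.0669; by edgeR, adjusted p = 0.358, and 0.0112 with the block, against 0.690 by DESeq2 with the block). Prkaa2, the other catalytic subunit, was at 0.78 and 0.75 FPKM after Lkb1 siRNA, against 0.69 and 0.55 FPKM after control siRNA, and Nim1k at 1.24 and 1.41 FPKM after Lkb1 siRNA, against 1.44 and 1.87 FPKM after control siRNA. Brsk1, Snrk and Melk had log2 fold changes of 0.06, 0.01 and 0.02. Brsk2 was not found by symbol among the 15768 genes.

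Upstream regulators and substrates of the SIKs showed few differences. SIKs are restrained by protein kinase A and act on CRTC and class IIa HDAC proteins. Of 17 tested genes of this group 7 were higher and 10 lower, with a median log2 fold change of -0.02 against 0.0005 for all genes, and 0 passed the main test. With the block 1 passed as higher, where 6.59% of all genes did: Mef2d, a transcription factor held back by class IIa HDACs, with 21.52 and 22.57 FPKM after Lkb1 siRNA, against 19.21 and 19.32 FPKM after control siRNA (log2 fold change 0.16, SE 0.0664; by edgeR, adjusted p = 0.422, and 0.0230 with the block, against 0.755 by DESeq2 with the block). The coactivator genes Crtc1 and Crtc2 were at 0.16 and 0.15 on the log2 scale, and edgeR gave adjusted p-values of 0.458 and 0.547 (blocked fit 0.0604 and 0.107), and Crtc3 at -0.04. Hdac7 had 39.20 and 36.15 FPKM after Lkb1 siRNA, against 38.16 and 42.40 FPKM after control siRNA (edgeR adjusted p = 0.552).

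Genes that CREB and CRTC are known to induce split in direction. Of 16 tested, 9 were higher and 7 lower, with a median log2 fold change of 0.03. None passed the main test, and with the block 4 passed as higher and 0 as lower, where 6.59 and 6.99% of all genes did. The 4 were the orphan receptor gene Nr4a1 and the AP-1 genes Fosb, Junb and Fos, which growth factors induce as well. Nr4a1 had 9.43 and 9.15 FPKM in the Lkb1 siRNA libraries, against 5.72 and 7.86 FPKM in the control siRNA libraries. Without the control siRNA library of batch 2, Nr4a1 had a log2 fold change of 0.68 and passed, but then 224 of 12367 genes did, and the lone control library was assumed to vary like the Lkb1 siRNA libraries. With all libraries the log2 fold changes were 0.44 for Nr4a1, 0.41 for Fosb, 0.23 for Junb and 0.23 for Fos, and adjusted p by edgeR ran from 0.325 to 0.464 unblocked and from 5.80e-05 to 0.00203 in the blocked fit. DESeq2 called none of the 4 in its blocked fit (adjusted p from 0.434 to 0.945). Most of this lay in batch 1, where the log2 differences were 0.70, 0.69, 0.41 and 0.46 in that order of genes, against 0.20, 0.09, 0.07 and 0.02 in batch 2. Ppargc1a had 0.08 and 0.09 FPKM after Lkb1 siRNA, against 0.15 and 0.17 FPKM after control siRNA (edgeR adjusted p = 0.453).

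Of 23 tested regulators and substrates of the MARKs, 9 were higher and 14 lower, with a median log2 fold change of -0.03. None passed the main test, and 4 passed as higher with the block, where 6.59% of all genes did. They were Dvl1, a Wnt pathway scaffold, Taok1 and Taok2, whose products include an activator of MARK, and Map2, a microtubule-associated MARK substrate. Dvl1 had 24.88 and 24.66 FPKM after Lkb1 siRNA, against 20.62 and 21.17 FPKM after control siRNA. Taok2 had 18.79 and 19.71 FPKM after Lkb1 siRNA, against 14.86 and 17.79 FPKM after control siRNA, and Taok1 13.09 and 13.59 FPKM after Lkb1 siRNA, against 11.51 and 12.06 FPKM after control siRNA. Map2 was low, at 1.82 and 2.23 FPKM after Lkb1 siRNA, against 1.65 and 1.43 FPKM after control siRNA. Tubb3, the neuron marker given above, was higher as well, and its part in the value of Map2 was not tested. The 4 had no overlap between groups, log2 fold changes from 0.15 to 0.36 and adjusted p by edgeR from 0.319 to 0.448, or from 0.00166 to 0.0315 in the blocked fit. With the block in DESeq2 none was called, at adjusted p from 0.480 to 0.695 for 3 of them and none given for Map2. The substrates Mapt, which encodes tau, and Dcx had at most 0.01 FPKM in any library and were not tested.

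**Figure D4:**
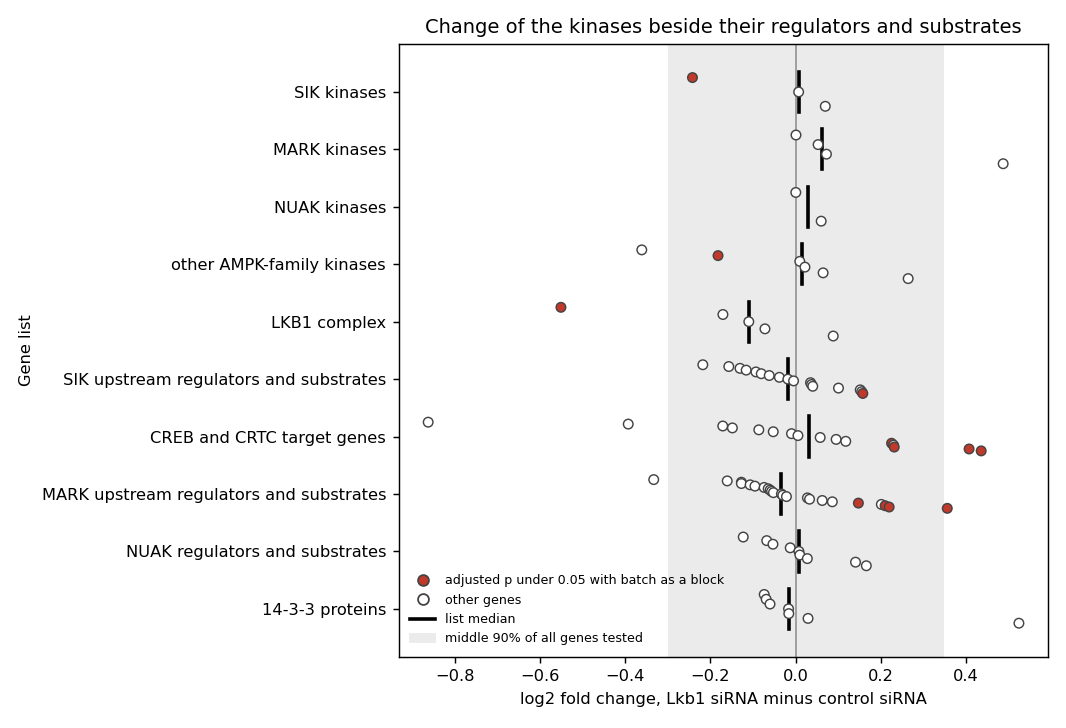
Log2 fold change (horizontal axis, Lkb1 siRNA minus control siRNA) of each tested gene in 10 gene lists (rows), with list medians as black bars and the middle 90% of all genes tested in grey. Red points passed with batch as a replicate block; among the 9 kinases only Sik2 is red, and Mark1 is the one outside the grey band.

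Regulators and substrates of the NUAKs and the 14-3-3 genes contained no gene that passed in either fit, where 0.0818% of all genes passed the main test and 13.6% the blocked one. Of 9 NUAK-related genes 5 were higher and 4 lower, with a median of 0.008. The kinase genes Lats1 and Plk1 had log2 fold changes of 0.14 and -0.12, and the MYPT family gene Ppp1r12b 0.17, with edgeR adjusted p from 0.511 to 0.587. Ppp1r12a, which encodes MYPT1 itself, was at 0.008. Casp6 had a log2 fold change of -0.07. Of 7 genes for 14-3-3 proteins 2 were higher and 5 lower, and the 4 with the smallest p were Sfn at 0.52, Ywhae and Ywhah at -0.07 and Ywhaz at -0.06 (edgeR adjusted p from 0.530 to 0.791).

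Genes with a course like that of Sik2, the kinase gene with the smallest p, were sought by the distance between log2 CPM values centred on each gene's mean over the 4 libraries. The nearest of 12221 genes were Mkrn2 (distance 0.0141), Morf4l1b (0.0175) and Hexa (0.0243), and 260 genes lay within 0.1, so the course is shared by many genes. Mkrn2 had 33.5 and 34.9 CPM in the Lkb1 siRNA libraries, against 39.1 and 41.6 CPM in the control siRNA libraries. With 4 libraries such closeness is a description only.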

How the data were processed

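RNA was measured in 4 libraries read as pairs of 150 bp, per the labels' protocols. The tools named are RSEM 1.2.8, HISAT2 2.0.4 and Bowtie2 2.2.5, and the build is GRCm39, per the submitters' processing notes; the tools' roles and the annotation are not given in the sources used here. The deposited read counts were the authors' expected counts (5.73 to 5.97% of gene values were not whole), and the FPKM values were made by the authors relative to length and depth. A doubled decimal point in 45 cells was read as 1 point, and 16 further columns of single libraries (TPM and normalised counts, over both tables) were not used.

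Counts were rounded and tested with edgeR 4.0.16 (R 4.3.3; TMM, expression filter with a minimum count of 10, robust quasi-likelihood F-test, Benjamini-Hochberg adjustment over all 12222 genes or 34279 transcripts, threshold 0.05). Standard errors came from the F statistic, and differences within a batch from log2 CPM. All CPM values used library sizes adjusted by TMM. Alternatives were DESeq2 1.42.0, limma 3.58.1 on log2(FPKM + 1) or log2(FPKM + 0.1), other filters and scaling, batch as a replicate block and leaving out each library. The main edgeR fit was also run on counts simulated with the spread estimated from these data, and its outcome is not given here. In the labels a culture's number is also its batch, so the numbers pair the libraries; same-batch deviations from the group means correlated at 0.221 across genes. The labels do not say how independent the cultures were, so p-values measure the spread between these libraries, which may be technical. With 2 residual degrees of freedom per gene, the main edgeR fit also drew on a spread shared over genes. The blocked edgeR fit took the spread mostly from all genes together rather than from each gene. Its common coefficient of variation was 3.15%, against 6.39% without the block. A gene can therefore pass in it although its own batches differ.

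Named were the 9 kinases, the LKB1 complex and family kinases, and of each other list the 4 genes with the smallest p or any that passed; transcripts were named from a share of 10% upward. Members and lists were chosen with earlier results of these data known. Ppp2r1b and the genes given only by level or range were named after their values were seen, and the batch term was added then. Sequences came from GENCODE M21 (GRCm38). One marker gene is not reported here.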

Additional observations from a re-analysis of the deposited data

How the results depend on the processing

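Of the 9 kinases, 0 passed in the main test and in every alternative except the edgeR replicate block, where 1 passed (Sik2). Sik2 stayed lower in all 12 alternatives (log2 fold change from -0.29 to -0.18; adjusted p from 0.0140 to 1.00) and Mark1 higher in all 11 that tested it (0.16 to 0.62); a mean of at least 5 CPM left Mark1 out. Leaving out 1 library turned the direction of 6 kinases, none of which passed: the log2 fold change ran from -0.083 to 0.21 in Sik1, -0.013 to 0.031 in Sik3, -0.0037 to 0.11 in Mark2, -0.097 to 0.097 in Mark4, -0.041 to 0.17 in Nuak1 and -0.075 to 0.081 in Nuak2. Mark4 also turned with the replicate block (-0.00096; -0.00043 in DESeq2) and without the filter, at 1 count or more (-0.0056), and Nuak2 with the block (-0.00024) and without the filter (-0.0057). Strada ran from -0.00052 to 0.18, Brsk1 from -0.030 to 0.16, Snrk from -0.014 to 0.038, Melk from -0.045 to 0.090, Casp6 from -0.14 to 0.0087, Ywhaz from -0.13 to 0.0084, and the glia marker Mbp from -0.14 to 0.86. The Sik2 form XM_006510267 ran from -0.67 to 0.43 and turned with library size scaling (0.032) and at 5 CPM or more (0.0078); the Mark1 form NM_145515 ran from -6.42 to 1.26 and turned with the replicate block (-1.55; -2.06 in DESeq2). Nr4a1, Junb and Fos passed without control siRNA replicate 2 (edgeR adjusted p = 0.00501, 0.0117 and 0.00652) and Fosb without Lkb1 siRNA replicate 2 (3.37e-04). In each fit that leaves out a library, 1 group holds a lone library that is assumed to vary like the other group. Vim and Acta2 also passed with DESeq2 unblocked (adjusted p = 0.00468 and 0.00259). The cause was not tested.

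Over all genes, 10 passed in the main test, 1660 with the replicate block, 3 with library size, 45 without the filter, 4 at 5 CPM or more, 49 with DESeq2, 118 with DESeq2 and the block, 0 with limma at either pseudocount and from 66 to 253 without 1 library. Over all transcripts edgeR called 0 in each fit, DESeq2 1254 and, with the block, 591; of the kinase transcripts DESeq2 called 1. Counts of 37 to 56 reads limit Mark1 and of 92 to 108 reads Nuak2.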
